A study of Mus musculus with 3 samples.

Results

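The 241 exons described here were the internal exons in which Tra2β crosslinks were densest relative to the rest of their own transcript in mouse testis. They were chosen by measured values. An internal exon of the canonical transcript of a protein-coding gene was taken when it held at least 20 crosslinks over 3 libraries and at least 3 in each, and when the mean over libraries of its log2 fold was at least 2, which is a density at least 4 times that of the other exons joined in the same transcript. The 241 exons lay in 200 genes and came from 167416 internal exons of 18089 genes, of which 985 exons in 554 genes met the count minimum. The rule itself took 24.5% of those 985 exons, and the remaining 744 served as the comparison. All 3 libraries were iCLIP of endogenous Tra2β, pulled down with a polyclonal antibody from minced total testes of adult wild type mice. The libraries made up 1 group with 3 replicates, no other genotype or treatment was compared, and the tissue was a mix of cell types. The study's methods call the replicates biological and describe ultraviolet treatment of cells released by the mincing.

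Tra2β is an SR-like splicing activator. It binds RNA through a single RNA recognition motif that prefers purine-rich sequence built around GAA, and when it sits on an exon it helps the splicing machinery to recognise that exon. In the testis, where alternative splicing is widespread, male germ cells pass from mitosis through meiosis into sperm formation. In iCLIP, ultraviolet light joins protein and RNA where they touch, and a crosslink here is 1 unique cDNA whose end marked that nucleotide. Crosslinks rise with the amount of an RNA as well as with binding, and no RNA or input library was used here. Within a transcript, an exon present in more of the RNA and an exon bound more often cannot be told apart.

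The sequences of 10 of these exons are shown because they had the highest folds, either as a mean or in their weakest library, and were at most 300 nt long. They were read from GRCm39 on the transcribed strand, 5′ to 3′, and every GAA is in capitals.
Ift57 exon 4, chr16:49526454-49526544, plus strand: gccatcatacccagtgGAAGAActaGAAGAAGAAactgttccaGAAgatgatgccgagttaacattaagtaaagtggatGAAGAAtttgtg
Nelfe exon 2, chr17:35069887-35069969, plus strand: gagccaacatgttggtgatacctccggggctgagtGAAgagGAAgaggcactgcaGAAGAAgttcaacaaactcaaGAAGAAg
Ssr1 exon 2, chr13:38175973-38176085, minus strand: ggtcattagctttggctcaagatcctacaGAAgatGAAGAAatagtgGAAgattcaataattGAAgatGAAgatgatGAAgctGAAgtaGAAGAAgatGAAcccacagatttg
Kpna4 exon 3, chr3:69008674-69008763, minus strand: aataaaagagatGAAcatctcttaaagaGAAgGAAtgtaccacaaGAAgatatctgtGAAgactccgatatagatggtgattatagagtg
Tcp10b exon 9, chr17:13292362-13292502, plus strand: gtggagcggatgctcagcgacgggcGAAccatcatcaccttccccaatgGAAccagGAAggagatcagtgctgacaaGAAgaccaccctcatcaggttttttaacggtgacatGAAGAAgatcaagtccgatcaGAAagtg
Serbp1 exon 6, chr6:67254745-67254922, plus strand: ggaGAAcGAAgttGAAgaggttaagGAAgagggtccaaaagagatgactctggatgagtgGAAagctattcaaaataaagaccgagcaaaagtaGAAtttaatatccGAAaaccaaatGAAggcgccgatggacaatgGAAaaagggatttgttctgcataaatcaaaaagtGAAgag
Cfap298 exon 3, chr16:90726804-90726871, minus strand: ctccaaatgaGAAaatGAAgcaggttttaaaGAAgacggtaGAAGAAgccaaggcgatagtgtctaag
Mea1 exon 2, chr17:46992543-46992823, plus strand: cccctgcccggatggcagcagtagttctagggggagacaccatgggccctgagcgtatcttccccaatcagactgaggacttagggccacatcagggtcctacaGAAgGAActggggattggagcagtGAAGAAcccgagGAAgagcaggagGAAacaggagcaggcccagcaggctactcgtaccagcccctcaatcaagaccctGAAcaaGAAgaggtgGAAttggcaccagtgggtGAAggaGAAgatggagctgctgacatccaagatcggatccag
Fgfr1op2 exon 3, chr6:146490238-146490355, plus strand: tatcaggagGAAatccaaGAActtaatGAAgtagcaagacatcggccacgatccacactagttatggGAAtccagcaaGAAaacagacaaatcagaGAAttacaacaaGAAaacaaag
Mlf1 exon 5, chr3:67302585-67302744, plus strand: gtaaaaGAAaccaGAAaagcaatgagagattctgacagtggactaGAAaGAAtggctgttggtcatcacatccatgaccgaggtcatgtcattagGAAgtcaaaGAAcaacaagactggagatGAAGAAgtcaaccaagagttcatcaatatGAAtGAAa

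These exons differed in length, each held several GAA, and most were purine-rich. Exon 2 of Ssr1, which encodes a subunit of the translocon-associated complex of the endoplasmic reticulum, held 11 GAA in 113 nt. Exon 4 of Ift57, a gene of the intraflagellar transport machinery that builds cilia, held 8 GAA in 91 nt. Its densest stretch of 41 nt, bases 47 to 87, held 18 of its 23 crosslinks but only 2 of the 8 GAA. In exon 3 of Cfap298, a gene needed for motile cilia, 31 of 34 crosslinks fell within bases 2 to 42. In exon 2 of Nelfe, a subunit of the complex that pauses RNA polymerase II, bases 25 to 65 held 25 of 26 crosslinks. Exon 9 of Tcp10b held the fewest purines of the 10, at 58.2%, and 22 of its 24 crosslinks lay between bases 74 and 114. That stretch was 51.2% purine and held 1 GAA. Tcp10b has close copies elsewhere in the genome, and reads may have been split among them.

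The strongest folds rested on few crosslinks in the exon but on a sparse remainder. Exon 3 of Kpna4, which encodes an importin α that carries proteins into the nucleus, held 7, 6 and 16 crosslinks in replicates 1, 2 and 3 in its 90 nt. The other exons of Kpna4 held 23, 15 and 50 in 8729 nt, and the log2 folds were 4.95, 5.35 and 4.99. Its folds were therefore among the most even, with a mean of 5.09 ± 0.22 (SD, n = 3). Nelfe exon 2 held 7, 5 and 14 crosslinks while its other exons held 15, 4 and 36 over 5189 nt, with a mean log2 fold of 5.27 ± 0.87. Ssr1 exon 2 held 7, 3 and 17, and its fold was much higher in replicate 2, at 6.84, than in replicates 1 and 3, at 4.03 and 4.45. Exon 6 of Serbp1, which encodes an mRNA-binding protein, held 8, 4 and 18 crosslinks with a mean fold of 4.99 ± 0.50. In Tcp10b the other exons held only 2, 1 and 7 crosslinks, so its fold of 5.05 ± 0.22 hung on a nearly empty remainder. Exon 2 of Mea1, a gene of late germ cells, held 9, 17 and 25 crosslinks, and exon 5 of Mlf1 held 19, 9 and 34, with mean folds of 4.56 ± 0.44 and 4.55 ± 0.37. Exon 3 of Fgfr1op2 held 6, 4 and 10, and its folds fell apart more, from 3.44 to 5.56.

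**Figure D1:**
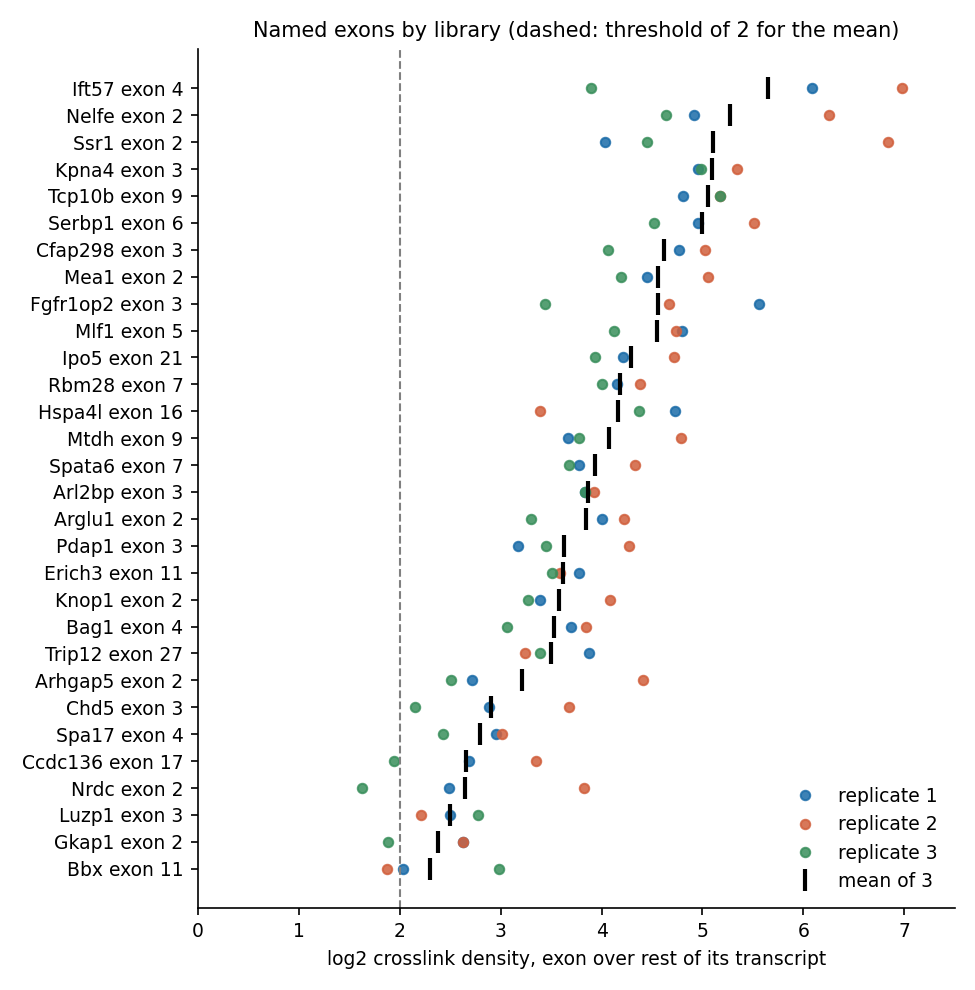
Log2 fold of crosslink density in the exon over the rest of its transcript (x axis) for 30 named exons (y axis), with a point for each of the 3 libraries, a bar for their mean and a dashed line at the threshold of 2. Exon 4 of Ift57 is at the top with a mean of 5.65, and folds in replicate 2 often lie to the right of the other libraries. The minimum of 3 crosslinks in each library can favour this order.

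The exons with the most crosslinks were another set, and only 2 of the 10, in Knop1 and Hspa4l, had a log2 fold above 3 in every library. Exon 2 of Knop1, which encodes a lysine-rich nucleolar protein, held 130, 30 and 290 crosslinks in 938 nt, the most of all, with folds of 3.39, 4.08 and 3.27. Exon 2 of Nrdc, which encodes the peptidase nardilysin, followed with 118, 47 and 171, but its fold in replicate 3 was 1.62. Exon 17 of Ccdc136 held 109, 13 and 168, and the long exon 3 of Luzp1 held 101, 44 and 158 in 3163 nt. Exon 4 of Spa17, a sperm surface protein gene, held 79, 4 and 109 crosslinks in only 78 nt. Replicate 2 was low for Ccdc136 and Spa17 although its library was the largest. Exon 2 of Arhgap5, exon 11 of Bbx, exon 16 of Hspa4l, exon 3 of Chd5 and exon 2 of Gkap1 completed the 10, with 198, 182, 167, 143 and 140 crosslinks in total.

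Over all 241 exons the total ranged from 20 to 450 crosslinks, with a median of 34. The mean log2 fold ranged from 2.00 to 5.65 with a median of 2.58, beside a median of 1.25 over the 985 exons that met the count minimum. The fold was at least 3 in 69 exons and at least 4 in 16. It was at least 2 in all 3 libraries in 120 exons and at least 1 in all 3 in 237. Replicate 2 gave the highest fold of the 3 libraries in 173 exons and replicate 3 the lowest in 152. Median folds were 2.52, 3.22 and 2.21 in replicates 1, 2 and 3. The rule kept an exon only where every library held at least 3 crosslinks, which can raise the folds of a library with low counts. Exons chosen without a library held a median of 7, 3 and 19 crosslinks in replicates 1, 2 and 3. The minimum thus bears most on replicate 2, and its part in the higher folds there was not tested. Near the threshold, exon 5 of Aplp2, exon 3 of Eef1d and exon 13 of Golga3 were just inside at 2.00, 2.01 and 2.02. Exon 6 of Ppm1g, exon 29 of Smarca4 and exon 12 of Hspa4l were just outside at 2.00, 1.99 and 1.99. These 6 exons had SDs between libraries of 0.13 to 0.79, so which side they fell on was within that spread.

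Libraries held 348033, 619571 and 488719 crosslinks, and the 241 exons took 3383, 2338 and 6360 of them. This was 0.972%, 0.377% and 1.3% of each library, so replicate 2 held the fewest crosslinks in these exons at the greatest depth. All 5 spermatocyte markers and all 6 spermatid markers had exonic crosslinks in every library. Spermatid markers held 648, 149 and 1154 crosslinks, so they too were low in replicate 2, while spermatocyte markers held 119, 116 and 258 and the 4 spermatogonia markers 15, 13 and 22. The 5 Sertoli cell markers held 9, 19 and 9, with Amh at 0 throughout, and the 5 Leydig cell markers held 34, 24 and 44. The 3 blood markers were at 0, and markers of tissues that were not sampled held 1 crosslink in all, in Myh6 in replicate 2. The part of cell mixture or library make-up in the lower counts of replicate 2 was not tested.

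The remainder against which each exon was measured consisted largely of terminal exons, which hold most of the untranslated sequence. In the 200 genes, first and last exons made up 57.4% of the exonic length but took 21.1%, 14.3% and 22.2% of the exonic crosslinks. These genes were taken for a dense internal exon, whose crosslinks are in the total, so the low share follows in part from the choice. When the reference was limited to the other internal exons, 80 of the 237 exons that had such a reference kept a mean log2 fold of at least 2. The median fold became 1.67, 196 exons kept a fold of at least 1, and 233 stayed above 0. Ipo5 exon 21, Kpna4 exon 3, Nelfe exon 2 and Tcp10b exon 9 kept folds of 3.09, 3.33, 3.40 and 4.14, whereas Serbp1 exon 6, Mea1 exon 2 and Arglu1 exon 2 came to 1.08, 1.11 and 0.58. Ranked by density, 159 of the 241 exons were the densest internal exon of their transcript and 51 were the next densest.

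To see whether the enrichment recurs in data that did not choose the exons, each library was left out in turn. Exons were chosen on the other libraries by the same mean fold with at least 14 crosslinks, and each was tested in the library left out with a two-sided exact binomial test, Benjamini-Hochberg adjusted over all exons tested. In replicate 1, 207 of 335 chosen exons (61.8%) were above the rest of their transcript at an adjusted p under 0.05, where 33.0% of all 1185 tested exons were. In replicate 2 it was 142 of 346 (41%) against 18.6% of 1969, and in replicate 3 it was 179 of 229 (78.2%) against 50.9% of 682. Exons that were tested but not chosen passed in 21.6%, 13.8% and 37.1% of cases. A log2 fold of at least 2 with at least 3 crosslinks in the library left out was found for 55.5%, 48.6% and 43.7% of the chosen exons, beside 19.8%, 19.3% and 17.7% of all tested exons. In replicate 2, 49 chosen exons had no crosslink at all, and the median chosen exon had 3, so that library could show the least. The median fold of the chosen exons went from 2.60 in the choosing libraries to 2.18 in replicate 1, from 2.53 to 2.57 in replicate 2, and from 2.65 to 1.86 in replicate 3. These medians set no minimum of crosslinks in the library left out. Because a constant was added to each count, such a fold can be positive without a crosslink. Thus 333 of the 346 chosen exons had a positive fold in replicate 2, although 49 held no crosslink there. The steady median in replicate 2 is therefore no measure of how well the enrichment recurred. The test covers counting error only.

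**Figure D2:**
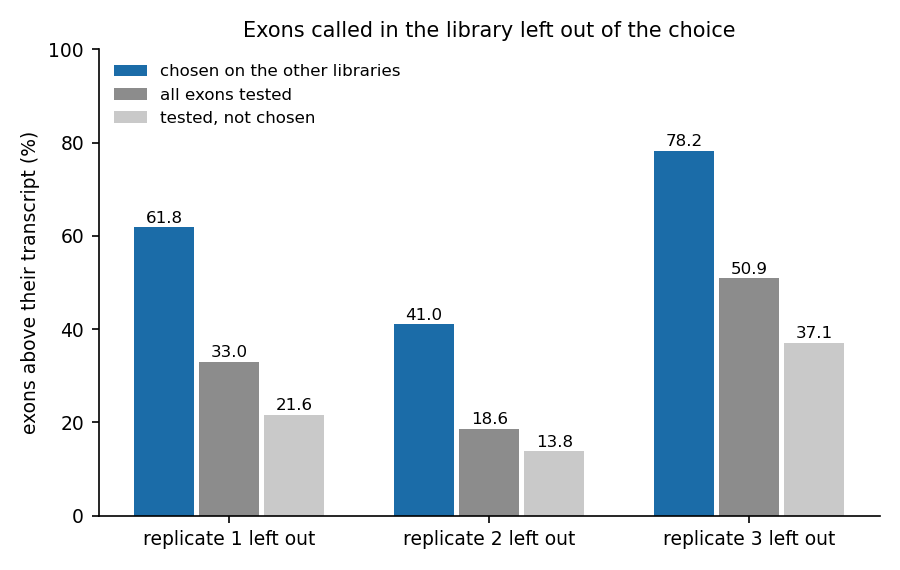
Percent of exons above the rest of their transcript in the library left out of the choice (y axis; two-sided exact binomial test, adjusted p under 0.05) for exons chosen on the other libraries, for all exons tested and for tested exons not chosen. In each of the 3 libraries the chosen exons passed more often, at 61.8%, 41% and 78.2%.

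Of the 241 exons, 100 were chosen in all 3 rotations, and 85 were chosen and passed in all 3. A pass was counted only in rotations in which the exon was chosen, and 112 exons were chosen in 2 rotations and 29 in 1. Counted so, another 87 passed in 2 rotations, 42 in 1 and 27 in none. As the 241 were chosen on all 3 libraries and had to hold at least 3 crosslinks in each, these counts are a description. Of these exons, 16 passed in every rotation with a log2 fold of at least 3 in each library left out. They belonged to Ift57, Cfap298, Mea1, Mlf1, Ipo5, Rbm28, Hspa4l, Mtdh, Spata6, Arl2bp, Arglu1, Pdap1, Erich3, Knop1, Bag1 and Trip12. Exons not chosen in all 3 rotations, such as those of Kpna4, Nelfe and Tcp10b with high folds, could not be among them. Exon 16 of Hspa4l, which encodes a chaperone of the Hsp110 family abundant in germ cells, held 58, 9 and 100 crosslinks in 108 nt, with folds of 4.73, 3.39 and 4.37. Exon 21 of Ipo5, a nuclear import receptor gene, is only 56 nt long and held 22, 5 and 43 crosslinks. Exon 7 of Rbm28, which encodes a nucleolar RNA-binding protein, held 24, 7 and 46, and its folds of 4.15, 4.38 and 4.01 lay close together. Exon 3 of Arl2bp had the most even folds of the 16, at 3.84, 3.92 and 3.84. In exon 7 of Spata6, a gene needed for the sperm head and tail to join, 25, 8 and 57 crosslinks were found. Exon 27 of Trip12, a ubiquitin ligase gene, held 20, 5 and 31 in 74 nt, and exon 4 of Bag1, a co-chaperone gene, held 17, 3 and 33.

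By gene function, assigned from symbol prefixes, the largest groups were RNA splicing and RNA binding with 22 exons in 18 genes and cilia and sperm flagella with 20 exons in 18 genes. The splicing and RNA-binding exons were 33.8% of the 65 of that group that met the count minimum, and the ciliary exons 13.4% of 149, where the rule took 24.5% overall. No test was made of these shares. Among the RNA-binding genes were the splicing factors Srsf2, Srsf11, Sf1, Srrm2, Luc7l3 and Prpf4b, several hnRNP genes, and Ddx4, the germ cell helicase Vasa. Exon 11 of Pnisr held the most crosslinks in that group, at 20, 75 and 21, with a mean fold of 2.08 ± 0.57, and exon 10 of Hnrnpu held 25, 6 and 46. The ciliary group reached from Ift57 at 5.65 to Lrrcc1 at 2.05. Within it Ccdc136 held the most crosslinks, followed by exon 2 of Meig1, a gene required for spermatid maturation, with 23, 4 and 79. Next came exon 2 of Iqcf3, with 28, 13 and 62, whose folds of 1.35, 4.33 and 0.81 disagreed more than most.

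Protein folding genes gave 13 exons in 8 genes, 34.2% of 38. Besides Hspa4l they included exon 5 of Hsp90aa1, the stress-inducible Hsp90 gene, with 43, 9 and 74 crosslinks, and exons of Canx and of Clgn, which encode the chaperone calnexin and its testis-specific relative. Exon 13 of Clgn held 49, 15 and 72, but its fold was 1.09 in replicate 3. Nuclear transport genes gave 5 exons in Kpna4, Ipo5 and Rangap1, 45.5% of 11. Chromatin and transcription genes gave 16 of 83, led in crosslinks by exon 3 of Chd5, a remodeller that acts when histones are replaced in spermatids, with 50, 36 and 57, and followed by exon 35 of Chd5 and exon 9 of Brd3. Centrosome and motor genes gave 10 of 74, with exon 6 of Cep85l highest at 26, 6 and 43, ahead of exon 13 of Kif27 and exon 3 of Cep126. Ubiquitin genes gave 7 of 26, led by exon 15 of Usp34, exon 15 of Trim37 and exon 2 of Fbxo30. Translation factor genes gave 6 of 22, including exon 5 of Eif5b, exon 5 of Eif3c and exon 3 of Eef1d. Meiosis and DNA repair genes gave 3 of 23, in Ddx4, Meig1 and Smc6. The endoplasmic reticulum and Golgi prefixes took 6 of 14, but 3 of these were exons of Srpk1 and Srpk2, which encode kinases that phosphorylate SR proteins. No exon came from the mitochondrial and energy genes, of which only 3 exons met the minimum. The remaining 135 exons fell in no group, 27.3% of 494.

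The libraries did not weigh these groups alike. Replicate 2 supplied 36.2% of the crosslinks in the splicing and RNA-binding exons, against 19.4% over all 241 exons, 10.8% in the ciliary exons and 9.95% in the protein folding exons. It held the most crosslinks of the 3 libraries in 12 of the 22 RNA-binding exons and in 1 of the 20 ciliary ones. Exon 6 of Srrm2 held 3, 18 and 3 crosslinks, exon 12 of Srsf11 4, 18 and 14, and exon 8 of Luc7l3 4, 20 and 8. These are counts within the exons, corrected neither for library depth nor for the amount of each RNA in each library. The splicing and RNA-binding exons held 196, 309 and 349 crosslinks in replicates 1, 2 and 3, whose libraries held 348033, 619571 and 488719. Relative to depth, replicate 2 was thus the lowest library in this group too. It lay further below the other libraries in the ciliary and protein folding exons.

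In 36 genes more than 1 exon was enriched, 77 exons in all, and in 21 of these genes at least 2 of them were neighbours. Hspa4l had the most, with exons 14, 15, 16 and 17 in a row. Exon 16 stood above its neighbours at a mean log2 fold of 4.16, beside 2.04, 2.60 and 2.56 for exons 14, 15 and 17, and exon 12 of the same gene was just under the threshold. Cfap36 had exons 2, 3 and 6, Chd5 exons 2, 3 and 35, and Hook1, a gene for a microtubule-linking protein of the spermatid, exons 16, 18 and 19. Canx exons 13 and 14 and Clgn exons 13 and 14, exons of the same number in these related genes, were all enriched, at 2.12 and 2.12 in Canx and 2.19 and 2.43 in Clgn. Genes with 2 enriched exons further included Ap3d1, Atp8b3, Bbx, Eif5, Eif5b, Erich3, Flacc1, Gkap1, Golga3, Hnrnpu, Ipo5, Mlf1, Mns1, Mprip, Pdap1, Psip1, Rangap1, Rbm28, Sbno1, Scaper, Srpk1, Srrm2, Supt20, Tmco5, Trim37 and Zranb2. Exons of one transcript share their remainder and are not independent of each other.

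The enriched exons were shorter than the other exons over the count minimum but longer than internal exons at large. Their median length was 151 nt (95% interval of the median 140 to 169), beside 271 nt in the 744 others and 124 nt over all internal exons. Among the 82 exons chosen with only internal exons as the reference, the median was 125 nt (108 to 141), which did not differ from all internal exons beyond its interval. The count minimum itself favours long exons, and 40.6% of the others but 14.1% of the enriched exons had at least 500 nt. The shortest were exon 64 of Potefam1 with 47 nt and exon 3 of 1700019A02Rik with 50 nt. Length was divisible by 3 in 96 of 241 (39.8%, exact 95% interval 33.6% to 46.3%), beside 42.6% of the others and 40.2% of all internal exons, a difference that the interval does not resolve. The exons were coding throughout in 210 cases (87.1%), beside 89.2% of the others and 94.4% of all, partly coding in 30 (12.4%), beside 10.1% and 3.98%, and non-coding in 1. Exon 2 of the transcript made up 19.1% (14.3% to 24.6%), beside 12.2% of the others and 10.8% of all. In the length band of 80 to 250 nt, exon 2 made up 13.2%, 5.88% and 9.55% in the same order. Nelfe, Ssr1 and Arglu1 had an enriched exon 2 within this band, and Mea1, Knop1 and Nrdc a longer one.

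Splice site scores and intron lengths around these exons did not differ from those of the other exons over the minimum beyond the intervals of the medians. Median flanking introns were 1663 nt upstream and 1523 nt downstream, beside 1759 nt and 1625 nt for the others. Splice sites were scored in log2 units against equal use of the bases, with weight matrices built on all internal exons. The median 5′ splice site score was 8.28 (7.91 to 8.56), beside 8.31 in the others. The median 3′ splice site score was 9.01 (8.61 to 9.55), beside 9.47 in the others and 9.56 over all. At 80 to 250 nt the 3′ scores were 8.66 (8.31 to 9.16), 8.81 (8.30 to 9.43) and 9.34 (9.31 to 9.36), so exons of both sets over the minimum had a lower median than internal exons at large, and only the enriched set had an interval that did not reach it.

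An annotated transcript that skips the exon existed for 84 of the 241 exons (34.9%, exact 95% interval 28.9% to 41.2%), beside 27.2% of the others and 26.4% of all internal exons. At 80 to 250 nt the shares were 38.4% (30.8% to 46.4%), 25.3% (20.8% to 30.3%) and 25.4%, and the first 2 intervals did not overlap. Among the 82 exons chosen against internal exons only, the share was 26.8% (17.6% to 37.8%). That interval held both 26.4% and 34.9%, so an excess over all internal exons was not resolved. Taken over exons, the median number of other annotated transcripts of the gene was 21 for the enriched exons, 15 for the others and 14 for all internal exons. The part of this in the skipping share was not tested. Most skipping was rare among annotated transcripts, at a median of 6.90% of those covering the exon, and it reached at least 50% in 4 exons. These were exon 17 of Ccdc136, spanned by an intron in 76 transcripts and overlapped by an exon in 2, exon 7 of Lcorl, exon 3 of Rtn4 and exon 6 of Mns1. Of the skipped exons, 33 of 84 (39.3%) had a length divisible by 3, beside 47.5% of the skipped exons among the others and 42.8% among all. Counting skipping only by protein_coding transcripts, the shares divisible by 3 were 48.5%, 57.0% and 50.8%. Knop1 exon 2 and Nrdc exon 2 were each skipped by 1 annotated transcript and were not divisible by 3. Arhgap5 exon 2, with 47, 36 and 115 crosslinks in 3861 nt, was skipped by 2, and Hspa4l exon 16 by 1. Srpk1 had 2 enriched exons, exon 10 skipped by 7 transcripts and exon 7 by 5. Another transcript had an exon with a different edge there, including transcript starts and ends, for 170 exons (70.5%), beside 59.7% of the others and 45.1% of all.

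Crosslinks of the introns took no part in the choice. For 230 exons the introns on both sides could be set against the other introns of the transcript. The median log2 fold of the flanking introns was 0.66, 0.46 and 0.71 in replicates 1, 2 and 3, beside 0.26, 0.08 and 0.16 for the others. As 0.5 was added to each count, this fold can exceed 0 without flanking crosslinks. It was 1.67 for Mea1 exon 2, whose gene had 0 intron crosslinks. Pooled, the flanking introns held 0.84, 1.05 and 1.14 crosslinks per kb and the other introns 0.55, 0.85 and 0.70. For the other exons over the minimum these were 0.67, 1.07 and 0.85 against 0.66, 1.19 and 0.85. Few single exons passed the two-sided exact binomial test in all 3 libraries. The flanking introns were higher for 5 of 230 (2.17%), where 1.56% of all 960 exons tested passed, and lower for 0, where 0.208% passed, so these counts lay near the background. With 1 library left out, the count was 14 of 322 exons without replicate 1, 9 of 219 without replicate 3 and 5 of 331 without replicate 2. These calls needed only the 2 kept libraries, with at least 14 crosslinks in the exon. They are thus not comparable with the 5 of 230, and the share over all exons tested was not computed for them. For exon 4 of Bicd2, a dynein adaptor gene, the flanking 3176 nt held 13, 13 and 8 crosslinks and the other 35950 nt held 7, 5 and 5, and every one of the flanking crosslinks lay upstream. Exon 7 of Spata6 had 22, 12 and 22 in 4061 nt against 83, 96 and 64 in 98518 nt. For exon 6 of Ddx4, 22, 21 and 22 crosslinks lay in the downstream intron and 1, 0 and 1 upstream. The introns of Paip2 exon 2 and Lekr1 exon 3 were the remaining calls, at mean log2 folds of 3.52 ± 1.20 and 0.79 ± 0.31.

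At both exon edges the density differed steeply between exon and intron. The first 50 nt of the enriched exons held 83.4, 52.0 and 163 crosslinks per kb in replicates 1, 2 and 3, and the last 50 nt of the intron upstream held 3.73, 3.57 and 6.64. The last 50 nt of the exon held 85, 58.6 and 154 per kb, and the first 50 nt of the intron downstream 1.91, 1.41 and 3.49. Each exon value was above each intron value in every library. The choice favours this order, since it set a minimum of crosslinks for exons and none for introns. The other exons over the minimum dropped likewise, from 42.7, 25.6 and 101 per kb in their first 50 nt to 2.93, 2.90 and 5.67 in the intron upstream.

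**Figure D3:**
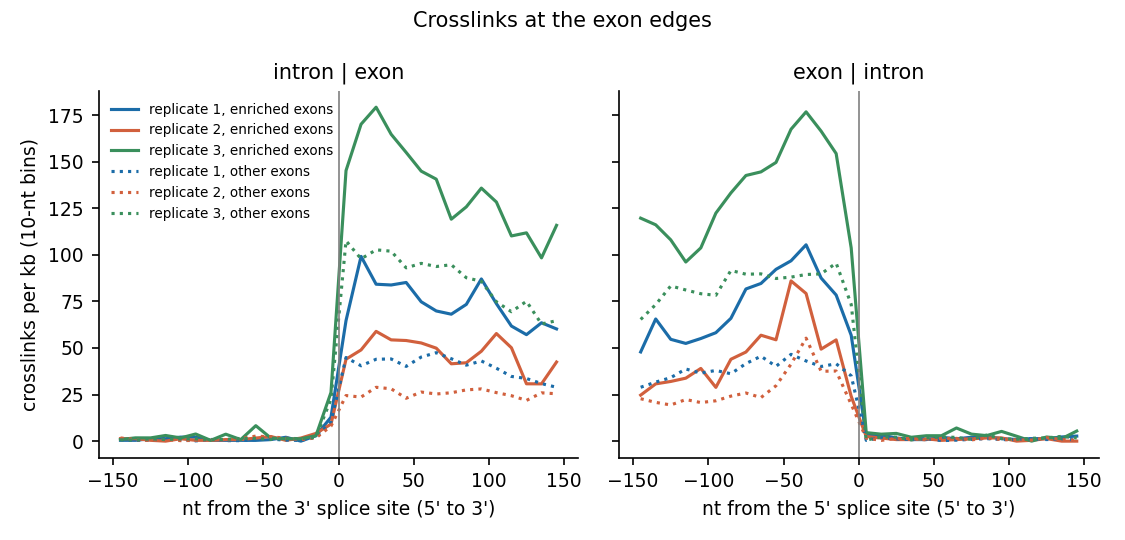
Crosslinks per kb in bins along the last and first 150 nt on each side of the 3′ splice site (left) and the 5′ splice site (right), for the enriched exons (solid lines) and the other exons over the count minimum (dotted lines) in each of the 3 libraries. Density drops from the exon to the intron at both edges in both sets, which the minimum of crosslinks in the exon favours. Inside the exon the solid lines lie above the dotted line of the same library, as the choice of the exons on density requires.

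Inside the exon the crosslinks clustered at recurring places. In each exon of at least 82 nt, the densest 41 nt were located with 2 libraries and then read in the library left out. Over 216 exons this window held 35.5%, 27.6% and 32.5% of the crosslinks left out, beside 20.5%, 19.4% and 20.4% by length, a ratio of 1.58 ± 0.16 (SD, n = 3). The ratio in the other exons was 1.47 ± 0.07, within the spread. For single exons, the densest 41 nt over all 3 libraries together are given as a description. In exon 5 of Hsp90aa1, these were bases 149 to 189 of 321, with 41 of 43, 6 of 9 and 68 of 74 crosslinks. That window was 90.2% purine with 5 GAA. In Iqcf3 exon 2, too short to be among the 216, bases 1 to 41 of 69 held 24, 8 and 60 of the 28, 13 and 62 crosslinks.

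Sequence composition, which the rule did not use, set the enriched exons apart by description. They held a median of 5.75 GAA per 100 nt (95% interval of the median 5.38 to 6.16), beside 3.68 (3.48 to 3.85) in the others and 2.26 over all internal exons. At 80 to 250 nt the medians were 6.25 (5.88 to 6.73), 4.70 (4.55 to 5.02) and 2.22, and the intervals did not overlap. The purine share in that band was 66.1%, 62.4% and 52.5%. AGAA, which overlaps GAA, was present at medians of 3.30, 2.13 and 0.746 per 100 nt. A purine share of at least 60% was found in 68.5% of the enriched exons, 42.6% of the others and 15% of all. Presence alone told little, since GAA on the transcribed strand was found in 99.2%, 99.6% and 91.0%. Rbm25 exon 12 had the highest content, with 15.6 GAA per 100 nt, and Srpk1 exon 7 and Ap3d1 exon 22 had none.

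Among exons of 80 to 250 nt over the count minimum, the share that was enriched went up with GAA content. It was 4 of 26 (15.4%) under 2 GAA per 100 nt, 17 of 114 (14.9%) from 2 to 4, 50 of 184 (27.2%) from 4 to 6, 50 of 116 (43.1%) from 6 to 8 and 38 of 59 (64.4%) at 8 or more. The exact 95% interval of the last class, 50.9% to 76.4%, did not overlap those of the classes under 6. Exons of one gene share a remainder, so these intervals are too narrow.

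**Figure D4:**
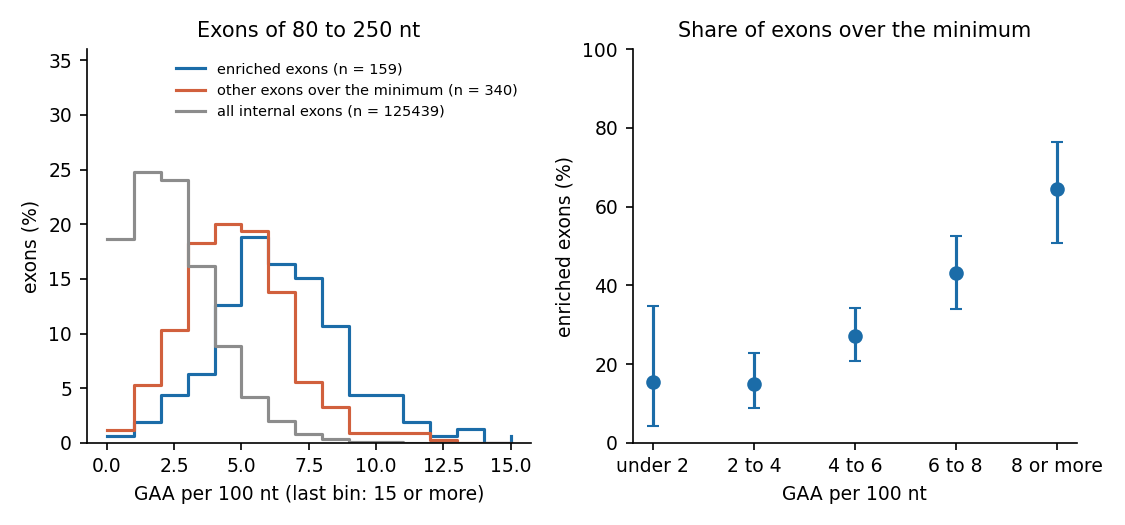
Left, distribution of GAA per 100 nt in exons of 80 to 250 nt for the enriched exons, the other exons over the count minimum and all internal exons (y axis, percent of exons). Right, percent of the exons over the count minimum that were enriched, by GAA content, with exact 95% intervals, going from 15.4% to 64.4%.

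GAA was also more frequent close to the crosslinks than elsewhere in the same exons. A GAA starting 1 to 20 nt downstream of a crosslinked position was 1.19, 1.38 and 1.13 times as frequent as the exon average in replicates 1, 2 and 3 (1.24 ± 0.13, SD, n = 3). Upstream the ratios were 1.15, 1.08 and 1.13. At the crosslinked position itself the libraries disagreed, with ratios of 1.61 and 2.02 in replicates 1 and 3 but 0.95 in replicate 2. One base upstream (1 nt) the ratios were 0.74, 0.61 and 0.66 in replicates 1, 2 and 3. At 3, 6 and 9 nt downstream the ratios were again above 1 in all 3 libraries, at 1.4 to 1.59, 1.49 to 1.95 and 1.38 to 1.69, with lower values between them. The other exons over the count minimum gave 1.18 ± 0.19 downstream, within the spread of the enriched exons.

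**Figure D5:**
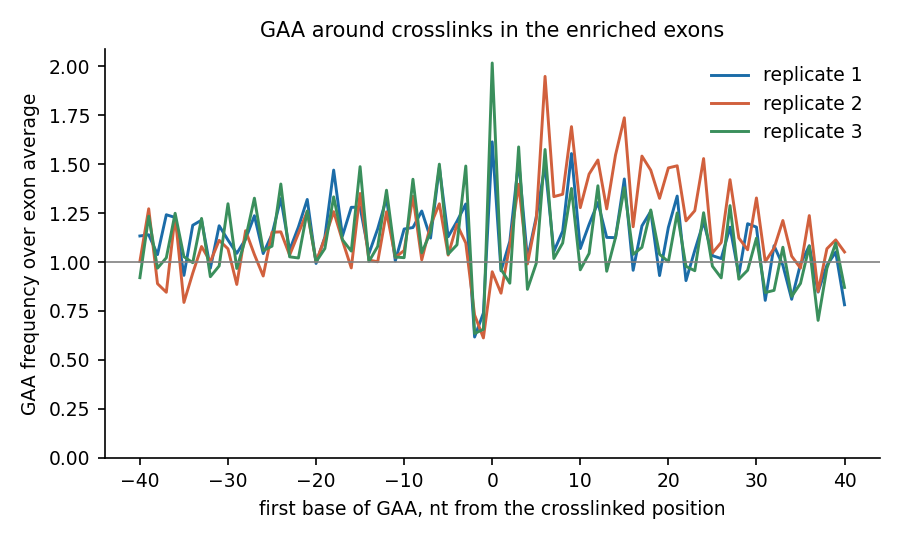
Frequency of GAA in the enriched exons by distance from the crosslinked position (x axis, nt; positive is downstream), over the average of the same exons (y axis, 1 is the exon average), one line for each of the 3 libraries. Peaks recur every 3 nt, and the value at 0 is 1.61, 0.95 and 2.02 in replicates 1, 2 and 3.

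A few of the 241 exons are less certain. Exons 5 and 6 of Zfp91 were counted a second time as exons 5 and 6 of the overlapping gene Gm44505, so the 241 exons were 239 distinct intervals. Together with Gm37389 exon 2, Gm50318 exon 2, Luzp1 exon 3 and Ythdc1 exon 4, 8 exons overlapped an exon of another gene on the same strand. The remainder held fewer than 3 crosslinks in at least 1 library for 19 exons, and 44 exons had exactly 3 crosslinks in their weakest library.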

How the data were processed

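The data were iCLIP libraries of Tra2β from adult wild type mouse testis, 3 replicates of 1 group. The files deposited by the authors, made with iMAPS, give for every crosslinked nucleotide and strand the raw counts of unique cDNAs. The submitters' processing notes name Trim Galore 0.6.7, Bowtie 1.3.1, STAR 2.7.9a, UMI-tools 1.1.2 and build mm39. UMI-tools collapses duplicates by random barcodes, and the replicates were separate files. How reads mapping to several places were treated was not given in the sources used here, so near-identical copies are uncertain.

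Counts were placed on their own strand in exons and introns of canonical transcripts (GENCODE vM39, GRCm39, the same build as mm39). All 49 sequence names and their highest positions were within the reference. The log2 fold compared the exon's crosslinks per nt with those of the transcript's remaining exons after adding 0.5 to each count. Totals were 348033, 619571 and 488719 crosslinks. Intervals (95%, Clopper-Pearson for shares, order statistics for medians) and tests cover counting error only. Intron bases within an exon of any transcript on that strand were left out. Tests were two-sided exact binomial tests with Benjamini-Hochberg adjustment, run in Python 3.11.15 with scipy 1.17.1 and tested on simulated data. The fold that chose the exons was given without a test.

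Exons were named by rule: the 10 highest by mean fold, by lowest fold and by crosslinks, 3 on each side of the threshold, those passing in all 3 rotations with a fold of at least 3, up to 3 of each gene group and 5 skipped exons by crosslinks, and genes with several. Examples outside these lists (Lcorl, Rtn4, Mns1, Rbm25, Srrm2 and others) were chosen after their values were seen, as were the classes of GAA content. The exons, gene groups and rules were chosen with earlier results of these data known. Alternatives covered the libraries, the reference, the counting of positions, shared bases, the pseudocount, the count minimum, the window and the transcripts, with effects given in the closing section.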

Additional observations from a re-analysis of the deposited data

How the results depend on the processing

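Of the alternatives, taking only the other internal exons as the reference moved the most values. It left 82 exons, 80 of them among the 241, with a median of 6.46 GAA per 100 nt, 66.0% purine, a median length of 125 nt, 26.8% annotated as skipped, where all internal exons had 124 nt and 26.4%, and 1 exon with higher flanking introns. A pseudocount on observed and expected counts gave 104 exons with 6.35 GAA per 100 nt, 66.1% purine and 139 nt. At least 40 crosslinks left 99 exons with a median length of 186 nt. At least 10 crosslinks with 1 in each library gave 828 exons with 5 GAA per 100 nt, 62.1% purine and 138 nt. Counting each position once left higher flanking introns for 3 of 206 exons, and leaving out intron bases within 300 nt of exons for 3 of 202. With the internal reference it was 1 of 81. The share over all tested exons was not computed for these counts. Windows of 21 and 81 nt changed the ratio of 1.58 to 1.89 and 1.33. With protein_coding transcripts only, 27.4% of the exons were skipped, beside 20.2% of all internal exons. With the internal reference, the interval of the median length, 108 to 141 nt, held the 124 nt of all internal exons and not the 151 nt of the 241. The interval of the skipping share, 17.6% to 37.8%, held both 26.4% and the 34.9% of the 241, so an excess was not resolved. The share of chosen exons passing in the library left out, on average 60.3%, ranged from 42.4% with the internal reference to 69.1% with a log2 fold of 3. For alternatives that changed the reference or the counting, the share over all tested exons was not computed, so 42.4% has no background beside it. With a log2 fold of 3 the tested exons were those of the main choice, of which 33.0%, 18.6% and 50.9% passed.

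With 1 library left out, the number of exons ranged from 229 to 346, the GAA content from 5.11 without replicate 2 to 6.09 without replicate 3, and the purine share from 61.7% to 65.5%. The exons with higher flanking introns ranged from 5 of 331 without replicate 2 to 14 of 322 without replicate 1, with 9 of 219 without replicate 3. These calls needed only the 2 kept libraries, unlike the main count, and the share over all tested exons was not computed for these choices. The window ratio ranged from 1.34 without replicate 1 to 1.63 without replicate 2, with 1.38 without replicate 3. The cause of these changes was not tested.

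No paired analysis was possible because the libraries form 1 group. At this depth many exons rest on few crosslinks, a median of 34 over 3 libraries, and exons of weakly expressed genes could not reach the count minimum. Without an RNA or input library, neither the level of the transcript nor the inclusion of the exon was measured.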
